A study of Homo sapiens with 12 samples.

Results

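The genes described here encode apolipoproteins, the proteins that coat lipoprotein particles and carry lipids through the blood. The members were the genes of the count table with the symbol APOA1, APOA2, APOB, APOC1, APOC3, APOE, APOH or APOM. Of these 8 names 7 were matched, out of 10940 genes in all, and APOM was not analysed here. The 7 genes were APOA1 (ENSG00000118137), APOA2 (ENSG00000158874), APOB (ENSG00000084674), APOC1 (ENSG00000130208), APOC3 (ENSG00000110245), APOE (ENSG00000130203) and APOH (ENSG00000091583). They were measured in HepG2 cells, an established human hepatoma line that carries no engineered change here (labelled wild type), in 4 media with 3 libraries each.

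The media were Plasmax-TE+Fe (Plasmax from which trace elements were left out and to which iron was added back), Plasmax-TE (Plasmax made without trace elements), Plasmax (a medium that follows the nutrient levels of human plasma) and EMEM (Eagle's minimum essential medium, in which the line was also maintained). Every medium contained 10% heat-inactivated fetal bovine serum, so even Plasmax-TE was not free of the lipids, lipoproteins and metals that serum brings. Cells were seeded in EMEM, moved to the test medium after 24 h, given fresh medium once after 48 h and collected 96 h after the switch. Whether replicate libraries stem from separate cultures is not stated, so the spread behind each p-value is that between the libraries at hand and could be technical. As in any bulk sample, fewer cells making a transcript and less transcript per cell cannot be told apart.

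The liver is the main source of these proteins in plasma. APOB is the large structural protein of very low density and low density lipoproteins, which hepatocytes load with triglyceride before secretion, while APOA1 and APOA2 are the main proteins of high density lipoprotein (HDL). APOC1, APOC3 and APOE are small exchangeable proteins that move between particles and set how fast these are hydrolysed and cleared, and APOH is a plasma protein that binds negatively charged phospholipids. Hepatic transcription of several of these genes is known to depend on nuclear receptors such as HNF4A and on liver factors of the FOXA and CEBP families.

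Some of the members are neighbours in the genome. APOA1 and APOC3 lie next to each other on chromosome 11, beside APOA4, and APOE and APOC1 lie next to each other on chromosome 19, whereas APOA2, APOB and APOH are on chromosomes 1, 2 and 17. A promoter sequence was matched by symbol in RefSeq (GRCh38.p14) for 4 of the 7 members, APOA2, APOH, APOE and APOC1; APOA1, APOB and APOC3 were not matched. All 4 matched promoters are shown, and none was chosen by its test result. Each runs 5′ to 3′ on the strand of its gene, from 250 bases before to 50 bases after the start of transcription, and capitals mark the motif matches given afterwards. The windows are chr1:161223579-161223878 on the minus strand for APOA2, chr17:66229366-66229665 on the minus strand for APOH, chr19:44905546-44905845 on the plus strand for APOE (the most upstream of 3 listed starts) and chr19:44914422-44914721 on the plus strand for APOC1.
APOA2: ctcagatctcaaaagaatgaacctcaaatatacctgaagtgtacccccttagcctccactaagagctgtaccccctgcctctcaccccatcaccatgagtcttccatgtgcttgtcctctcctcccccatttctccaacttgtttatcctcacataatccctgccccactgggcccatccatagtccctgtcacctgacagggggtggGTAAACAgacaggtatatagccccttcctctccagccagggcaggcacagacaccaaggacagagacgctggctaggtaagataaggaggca
APOH: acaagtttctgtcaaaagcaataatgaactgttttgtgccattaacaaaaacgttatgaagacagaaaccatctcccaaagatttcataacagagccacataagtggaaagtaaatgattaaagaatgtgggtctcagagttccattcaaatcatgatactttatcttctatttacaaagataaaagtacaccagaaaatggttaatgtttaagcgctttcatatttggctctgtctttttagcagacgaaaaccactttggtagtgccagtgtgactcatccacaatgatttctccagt
APOE: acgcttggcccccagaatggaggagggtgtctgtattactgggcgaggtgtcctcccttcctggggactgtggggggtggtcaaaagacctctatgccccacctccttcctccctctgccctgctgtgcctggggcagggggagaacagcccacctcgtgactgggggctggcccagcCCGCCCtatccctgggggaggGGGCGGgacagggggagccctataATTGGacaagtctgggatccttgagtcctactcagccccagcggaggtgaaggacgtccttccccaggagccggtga
APOC1: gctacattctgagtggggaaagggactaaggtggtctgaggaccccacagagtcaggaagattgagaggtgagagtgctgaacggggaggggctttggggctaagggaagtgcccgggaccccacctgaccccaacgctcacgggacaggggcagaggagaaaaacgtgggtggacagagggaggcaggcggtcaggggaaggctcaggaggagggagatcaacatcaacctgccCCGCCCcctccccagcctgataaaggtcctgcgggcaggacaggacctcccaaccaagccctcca

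Exact matches to 6 short motifs were searched on both strands of these windows, and no match overlapped another. The forkhead motif TGTTTAC, read by FOXA factors, was found once, in the APOA2 promoter on the strand opposite to the printed one, where it reads GTAAACA with its first printed base at -42 from the start, and 3.42% of 35116 RefSeq promoters of the same length hold it. The APOE promoter held the GC box GGGCGG at -51 on the printed strand and at -72 on the opposite strand, and CCAAT at -27 on the opposite strand. The APOC1 promoter held GGGCGG at -15 on the opposite strand. GGGCGG occurs in 45.0% and CCAAT in 34.6% of promoters. The HNF4A motif CAAAGTCCA (0.384% of promoters), the nuclear receptor half-site AGGTCA (13.8%) and TATAAA (11.5%) had no exact match in the 4 windows, and the APOH window had none of the 6. A match describes letters and is no evidence of binding.

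Total counts per library ran from 1562125 to 2384090, so 1 count was worth 0.419 to 0.640 CPM (counts of a gene after scaling every library to the same total). The first principal component of all genes held 34.1% of the variance of log2 CPM and the second 17.6%. On the second, replicate 2 of Plasmax-TE+Fe (-32.0) and replicate 1 of Plasmax-TE (-35.5) stood apart from the other 10 libraries (-8.11 to 19.6). Calls of members that changed without both are given below. Levels, shares, ratios and correlations use all libraries and were not repeated without them. HepG2 identity was checked with marker lists. All 7 hepatocyte markers were measured, with a summed level of 14359 to 16338 CPM in Plasmax-TE+Fe, 19663 to 20619 in Plasmax-TE, 9082 to 11229 in Plasmax and 30562 to 34416 in EMEM. The 3 fetal liver or hepatoma markers (AFP, GPC3 and DLK1) summed to 3818 to 4164, 4489 to 5176, 2461 to 2732 and 8048 to 9817 CPM in the same order of media. Of 5 cholangiocyte or progenitor markers 4 were measured, at 631 to 1031 CPM in Plasmax-TE+Fe, 564 to 784 in Plasmax-TE, 1346 to 1667 in Plasmax and 547 to 660 in EMEM. Of the endothelial markers 0 of 4 were among the genes analysed, of the fibroblast or stellate markers 2 of 5 (29.2 to 79.4 CPM in any library), of the enterocyte markers 1 of 5 (VIL1, 99.9 to 225 CPM) and of the leukocyte or macrophage markers 3 of 5 (793 to 2502 CPM, nearly all from LYZ). The summed levels of the hepatocyte and of the hepatoma markers were, like several members, highest in EMEM and lowest in Plasmax. This order did not hold for every single marker, as TTR averaged 199 CPM in Plasmax-TE+Fe and 205 in Plasmax. The part of these markers in the results was not tested.

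**Figure D1:**
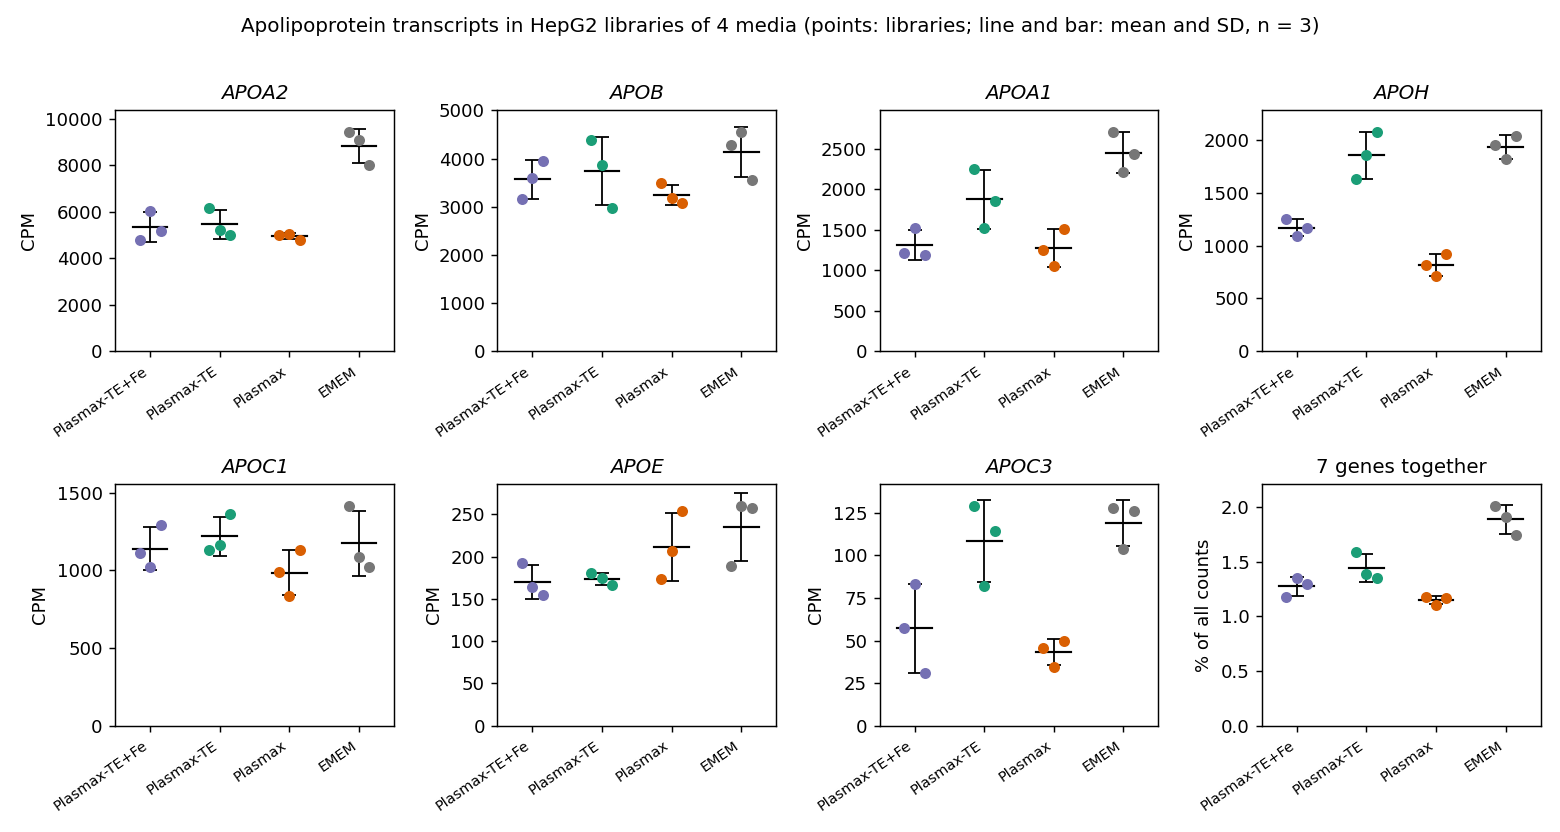
Level of each of the 7 apolipoprotein genes in CPM (vertical axes starting at 0) in the 3 libraries of Plasmax-TE+Fe, Plasmax-TE, Plasmax and EMEM, and the share of all counts held by the 7 genes together (last panel, percent). Points are libraries, horizontal lines are means and error bars are SD (n = 3); together the 7 genes held 1.11 to 1.18% of counts in Plasmax libraries and 1.75 to 2.01% in EMEM libraries.

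Together the 7 apolipoproteins took up 1.27 ± 0.0886% of all counts in Plasmax-TE+Fe, 1.44 ± 0.126% in Plasmax-TE, 1.15 ± 0.0389% in Plasmax and 1.89 ± 0.134% in EMEM (SD, n = 3 each). In the plot of the members by library every EMEM library lay above every library of the other media in this share. All 7 passed the filter on low counts. APOA2 had 7830 to 21627 counts per library, APOB 5446 to 10863, APOA1 1957 to 5349, APOH 1270 to 4463 and APOC1 1551 to 2640, so their precision was limited by the libraries rather than by counting. APOE had 271 to 619 counts and APOC3 62 to 277, so counting error weighed most on APOC3.

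Tested over the 4 media at once, APOH (adjusted p = 1.0e-05), APOA2 (adjusted p = 2.1e-05), APOA1 (adjusted p = 3.1e-04) and APOC3 (adjusted p = 4.0e-04) differed in the quasi-likelihood test of edgeR, adjusted by Benjamini-Hochberg over all 10459 genes tested. These were 4 of the 7, against 18% of all genes tested. APOE (adjusted p = 0.086), APOB (adjusted p = 0.16) and APOC1 (adjusted p = 0.43) did not pass. With the run of library numbers in the labels as a block APOE (adjusted p = 0.016) and APOB (adjusted p = 0.041) passed as well, while calls over all genes rose from 1879 to 2835. Differences between pairs of media below come from the same model, as log2 fold changes ± SE.

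APOA1, the main protein of HDL and the cofactor of the cholesterol-esterifying enzyme LCAT, had 1219, 1522 and 1183 CPM in Plasmax-TE+Fe, 2251, 1519 and 1849 in Plasmax-TE, 1253, 1047 and 1513 in Plasmax, and 2706, 2210 and 2434 in EMEM. The Plasmax libraries all lay below the Plasmax-TE and the EMEM libraries, the Plasmax-TE gap being narrow (1519 CPM in its lowest library, against 1513 in the highest Plasmax library), and the Plasmax-TE+Fe libraries overlapped those of both other Plasmax media. APOA1 fell in Plasmax relative to EMEM, with a log2 fold change of -0.99 ± 0.16 (adjusted p = 2.1e-04), and rose in Plasmax-TE relative to Plasmax, with 0.55 ± 0.16 (adjusted p = 0.034). The Plasmax-TE call was lost without Plasmax replicate 1 (adjusted p = 0.095), Plasmax replicate 2 (adjusted p = 0.19), Plasmax-TE replicate 1 (adjusted p = 0.12) or Plasmax-TE replicate 3 (adjusted p = 0.081), without both libraries that stood apart (adjusted p = 0.073) and with only the 6 libraries compared (adjusted p = 0.060). An antisense gene overlaps APOA1 in the reference annotation, and since no strand setting of the counting is given, reads from it cannot be told apart from those of APOA1.

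APOA2, the other main HDL protein, had 4785, 6034 and 5184 CPM in Plasmax-TE+Fe, 6165, 5204 and 4994 in Plasmax-TE, 5012, 5059 and 4794 in Plasmax, and 9437, 9071 and 8017 in EMEM. All 9 libraries of the 3 Plasmax media lay below the lowest EMEM library, and those 3 media overlapped. Relative to EMEM it fell in all 3, with log2 fold changes of -0.78 ± 0.11 in Plasmax-TE+Fe (adjusted p = 1.4e-04), -0.75 ± 0.11 in Plasmax-TE (adjusted p = 5.1e-04) and -0.89 ± 0.11 in Plasmax (adjusted p = 1.6e-05). Plasmax-TE differed from Plasmax by 0.14 with an interval of -0.10 to 0.38 (adjusted p = 0.46), and Plasmax-TE+Fe from Plasmax-TE by -0.04 with an interval of -0.28 to 0.20 (adjusted p = 0.96). Both intervals, at 95% as throughout, end short of the size of the estimates relative to EMEM.

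APOB, without which hepatocytes cannot form very low density lipoprotein, had 3162, 3590 and 3959 CPM in Plasmax-TE+Fe, 4378, 3860 and 2984 in Plasmax-TE, 3486, 3187 and 3082 in Plasmax, and 4290, 4556 and 3564 in EMEM. The Plasmax libraries lay below the EMEM libraries by a small margin (highest Plasmax library 3486 CPM, lowest EMEM library 3564), and the other media overlapped with both. APOB fell in Plasmax relative to EMEM, with a log2 fold change of -0.40 ± 0.14 (adjusted p = 0.041). That call was lost with library size as the only scaling (adjusted p = 0.068), with a replicate block (adjusted p = 0.0502) and when any of 7 single libraries was left out, namely EMEM replicate 1 (adjusted p = 0.12) or 2 (adjusted p = 0.15), Plasmax replicate 1 (adjusted p = 0.060), 2 (adjusted p = 0.16) or 3 (adjusted p = 0.065), Plasmax-TE replicate 2 (adjusted p = 0.055) or Plasmax-TE+Fe replicate 3 (adjusted p = 0.065).

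APOC3, which inhibits lipoprotein lipase and slows the clearance of triglyceride-rich particles, had 57.2, 83.3 and 30.8 CPM in Plasmax-TE+Fe, 129, 82.1 and 114 in Plasmax-TE, 45.5, 34.5 and 49.8 in Plasmax, and 128, 104 and 126 in EMEM. Plasmax libraries lay below all Plasmax-TE and EMEM libraries, while Plasmax-TE+Fe spread from below the lowest Plasmax library to above the lowest Plasmax-TE library. Its log2 fold changes were the largest among the members, at -1.50 ± 0.25 in Plasmax relative to EMEM (adjusted p = 2.6e-04) and 1.32 ± 0.25 in Plasmax-TE relative to Plasmax (adjusted p = 0.0024). In Plasmax-TE+Fe it also fell relative to EMEM, with -1.12 ± 0.25 (adjusted p = 0.0056). Plasmax-TE differed from EMEM by -0.19 with an interval of -0.68 to 0.31 (adjusted p = 0.73).

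APOC1, an exchangeable protein that inhibits cholesteryl ester transfer, had 1110, 1023 and 1291 CPM in Plasmax-TE+Fe, 1135, 1162 and 1366 in Plasmax-TE, 993, 836 and 1130 in Plasmax, and 1415, 1085 and 1023 in EMEM. Every Plasmax-TE library was above every Plasmax library, again narrowly (1135 CPM in the lowest Plasmax-TE library, 1130 in the highest Plasmax library), and no pair of media passed the test. Its difference between Plasmax and EMEM was -0.30 ± 0.17 (adjusted p = 0.22) and between Plasmax-TE and Plasmax 0.31 ± 0.17 (adjusted p = 0.24). The pseudogene APOC1P1, a near-copy of APOC1, had 16 to 44 counts per library where APOC1 had 1551 to 2640. How reads that match both were counted is not given, so the APOC1 values are uncertain to that extent.

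APOE, the ligand through which remnant particles bind receptors on hepatocytes, had 193, 164 and 154 CPM in Plasmax-TE+Fe, 180, 175 and 166 in Plasmax-TE, 173, 206 and 254 in Plasmax, and 189, 260 and 257 in EMEM. Plasmax-TE lay below EMEM in every library, and the other pairs of media overlapped. With all 12 libraries and no block APOE passed in no pair of media, with -0.51 ± 0.17 in Plasmax-TE+Fe relative to EMEM (adjusted p = 0.064), -0.49 ± 0.17 in Plasmax-TE relative to EMEM (adjusted p = 0.12) and -0.20 ± 0.17 in Plasmax relative to EMEM (adjusted p = 0.44). Without EMEM replicate 1 (adjusted p = 0.043) or Plasmax replicate 3 (adjusted p = 0.035) APOE passed in Plasmax-TE+Fe relative to EMEM. In Plasmax-TE relative to Plasmax its estimate was -0.28 ± 0.17 (adjusted p = 0.31), the one member with a negative value there.

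APOH had 1249, 1090 and 1162 CPM in Plasmax-TE+Fe, 1631, 1858 and 2074 in Plasmax-TE, 813, 714 and 917 in Plasmax, and 1948, 1814 and 2031 in EMEM. The libraries fell into 3 levels that did not overlap, with Plasmax lowest, Plasmax-TE+Fe next, and Plasmax-TE and EMEM together at the top. APOH fell in Plasmax relative to EMEM, with a log2 fold change of -1.29 ± 0.15 (adjusted p = 5.1e-06), and rose in Plasmax-TE relative to Plasmax, with 1.19 ± 0.15 (adjusted p = 5.8e-05). It fell in Plasmax-TE+Fe relative to EMEM, with -0.78 ± 0.15 (adjusted p = 0.0020). Plasmax-TE differed from EMEM by -0.10 with an interval of -0.41 to 0.21 (adjusted p = 0.79). The placement of Plasmax-TE+Fe between the other Plasmax media did not pass, at -0.68 ± 0.15 relative to Plasmax-TE (adjusted p = 0.059) and 0.52 ± 0.15 relative to Plasmax (adjusted p = 0.11).

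**Figure D2:**
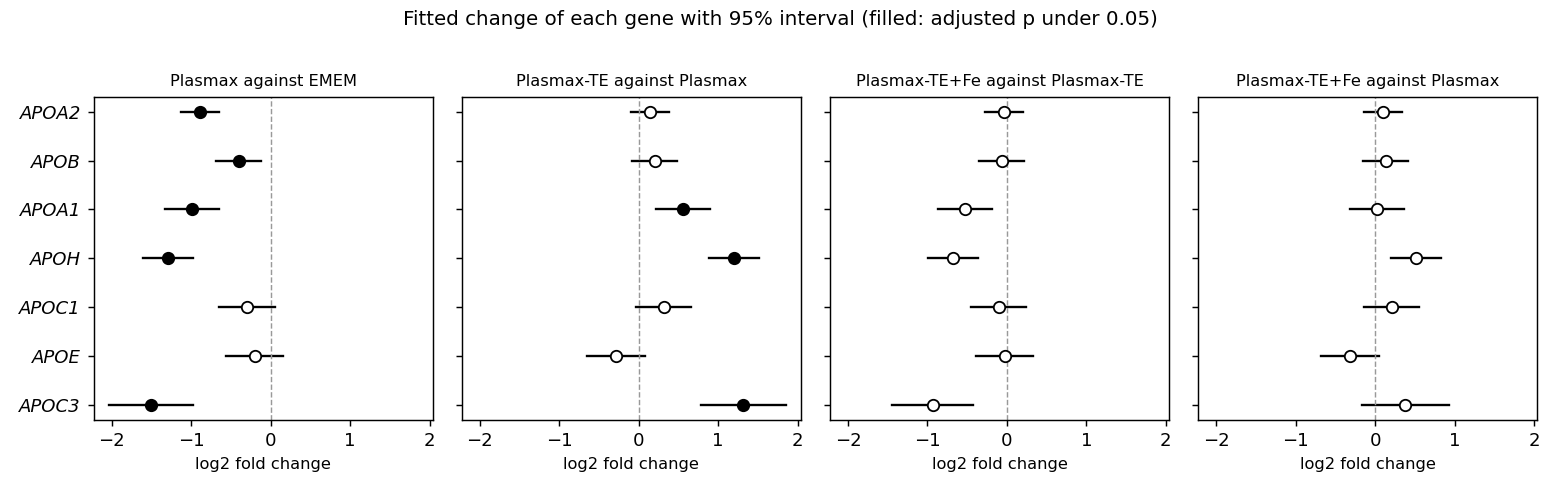
Log2 fold change of each apolipoprotein gene with its 95% interval in 4 comparisons of media, from edgeR's quasi-likelihood model over 12 libraries. Filled points have an adjusted p under 0.05; in Plasmax against EMEM 5 of 7 are filled and all estimates are below 0, in Plasmax-TE against Plasmax 3 are filled, and in Plasmax-TE+Fe against Plasmax-TE or against Plasmax none is.

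By comparison, 5 of the 7 members fell and 0 rose in Plasmax relative to EMEM, where 11.5% of all genes fell, 9.9% rose and 21.4% were called in either direction. The same 5 genes had libraries that did not overlap, as 39.8% of all genes did. The median log2 fold change was -0.89 over the members and -0.01 over all genes. In Plasmax-TE relative to Plasmax 3 of 7 rose (APOA1, APOC3 and APOH) and 0 fell, where 5.61% of all genes rose, 5.63% fell and 11.2% were called. The members' median there was 0.31, against 0.02 over all genes. Libraries did not overlap for those 3 genes and APOC1, and for 30.4% of all genes. Both comparisons use the Plasmax libraries, so a low or high draw of those 3 libraries enters both with opposite sign.

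With iron added back, 0 of 7 members were called in Plasmax-TE+Fe relative to Plasmax-TE in edgeR's test, where 0.258% of all genes were called. DESeq2 called 2 members and limma-voom 0. Over all genes DESeq2 called 81, against 27 in edgeR's test. At an unadjusted p under 0.05 there were 3, all with negative estimates, where 9.31% of all genes had such a p and 5.13% had it with a negative estimate. These were APOH (-0.68 ± 0.15, adjusted p = 0.059), APOC3 (-0.94 ± 0.25, adjusted p = 0.13) and APOA1 (-0.52 ± 0.16, adjusted p = 0.24), which are the genes that rose in Plasmax-TE relative to Plasmax, a comparison that shares the Plasmax-TE libraries. The estimates of APOA2, APOB, APOC1 and APOE ran from -0.11 to -0.03. The calls changed with the test and the block. Libraries of the same run of library numbers deviated together here in all 3 pairs (r = 0.534, 0.217 and 0.377 across genes), the first of which is the pair that stood apart, whereas same-numbered replicates did not. Deviations from a medium mean cancel out over its 3 libraries, so these r depend on each other and are not 3 separate observations. APOH (adjusted p = 0.0067) and APOC3 (adjusted p = 0.048) were called by DESeq2. APOH was called with library size alone (adjusted p = 0.026) and with the run of library numbers as a block, where APOC3 and APOA1 were called too (adjusted p = 0.0039 for APOH, 0.0042 for APOC3 and 0.027 for APOA1). Without the 2 libraries that stood apart APOC3 (-1.15, adjusted p = 0.035) and APOH (-0.72, adjusted p = 0.030) were called. APOH also passed without Plasmax replicate 3 (adjusted p = 0.034) or Plasmax-TE replicate 1 (adjusted p = 0.039), and APOC3 without Plasmax-TE+Fe replicate 2 (-1.25, adjusted p = 0.010). Calls over all genes rose as well, to 152 with the block, 99 without the 2 libraries and 229 without Plasmax-TE+Fe replicate 2.

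In Plasmax-TE+Fe relative to Plasmax 0 of 7 were called in edgeR's test, nor any by DESeq2 or limma-voom, where edgeR called 1.2% of all genes. APOH alone had an unadjusted p under 0.05, as 13.6% of all genes did, and its libraries did not overlap, as was so together with such a p for 10.5% of all genes. With the library-number block (adjusted p = 0.012), with library size alone (adjusted p = 0.038) or without the 2 libraries that stood apart (adjusted p = 0.029) APOH was called here. The block raised the calls over all genes here from 126 to 372. In Plasmax-TE relative to EMEM 1 of 7 fell, APOA2, where 3.19% of all genes fell and 4.81% were called. With the library-number block APOA1 (-0.45, adjusted p = 0.020) and APOE (-0.47, adjusted p = 0.032) were called there too, while calls over all genes rose from 503 to 829. In Plasmax-TE+Fe relative to EMEM 4 of 7 fell, APOA1 (-0.96 ± 0.16, adjusted p = 6.4e-04), APOA2, APOC3 and APOH, where 5.98% of all genes fell and 9.65% were called. With the library-number block APOE was called there as well (-0.51, adjusted p = 0.012), while calls over all genes rose from 1009 to 1569.

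To compare members with each other, 5 ratios of counts were formed within libraries. APOC3 over its chromosomal neighbour APOA1 was 0.0469, 0.0547 and 0.0260 in Plasmax-TE+Fe, 0.0573, 0.0541 and 0.0617 in Plasmax-TE, 0.0363, 0.0329 and 0.0329 in Plasmax, and 0.0472, 0.0469 and 0.0518 in EMEM. Plasmax-TE lay highest among the media other than Plasmax-TE+Fe, Plasmax lowest and EMEM between them, with no overlap among these 3. APOB over APOA2 was 0.661, 0.595 and 0.764 in Plasmax-TE+Fe, 0.710, 0.742 and 0.598 in Plasmax-TE, 0.696, 0.630 and 0.643 in Plasmax, and 0.455, 0.502 and 0.445 in EMEM, so all 9 libraries of the Plasmax media were above EMEM. In an exact permutation test, two-sided, of 3 libraries against 3 the smallest p is 0.1, which all differences without overlap reached (adjusted p = 0.20 over 30 tests), so no ratio could pass a threshold of 0.05.

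APOH over APOA2 was 0.261, 0.181 and 0.224 in Plasmax-TE+Fe, 0.265, 0.357 and 0.415 in Plasmax-TE, 0.162, 0.141 and 0.191 in Plasmax, and 0.206, 0.200 and 0.253 in EMEM. The ratio was above all other libraries in Plasmax-TE, and Plasmax lay below EMEM without overlap. APOC1 over its neighbour APOE was 5.75, 6.24 and 8.36 in Plasmax-TE+Fe, 6.29, 6.66 and 8.21 in Plasmax-TE, 5.72, 4.05 and 4.45 in Plasmax, and 7.50, 4.18 and 3.98 in EMEM. Plasmax-TE and Plasmax-TE+Fe lay above Plasmax, the latter narrowly (lowest library 5.75, against 5.72 in the highest Plasmax library). EMEM replicate 1 (7.50) lay among the values of Plasmax-TE and Plasmax-TE+Fe while EMEM replicates 2 and 3 did not. APOC1 over APOA2, the fifth ratio, did not overlap between EMEM and any Plasmax medium and overlapped among the Plasmax media. As shares of all member counts, APOA2 held 41.8% in Plasmax-TE+Fe, 37.8% in Plasmax-TE, 43.0% in Plasmax and 46.8% in EMEM, and APOB 28.0%, 25.8%, 28.2% and 21.9% in the same order.

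**Figure D3:**
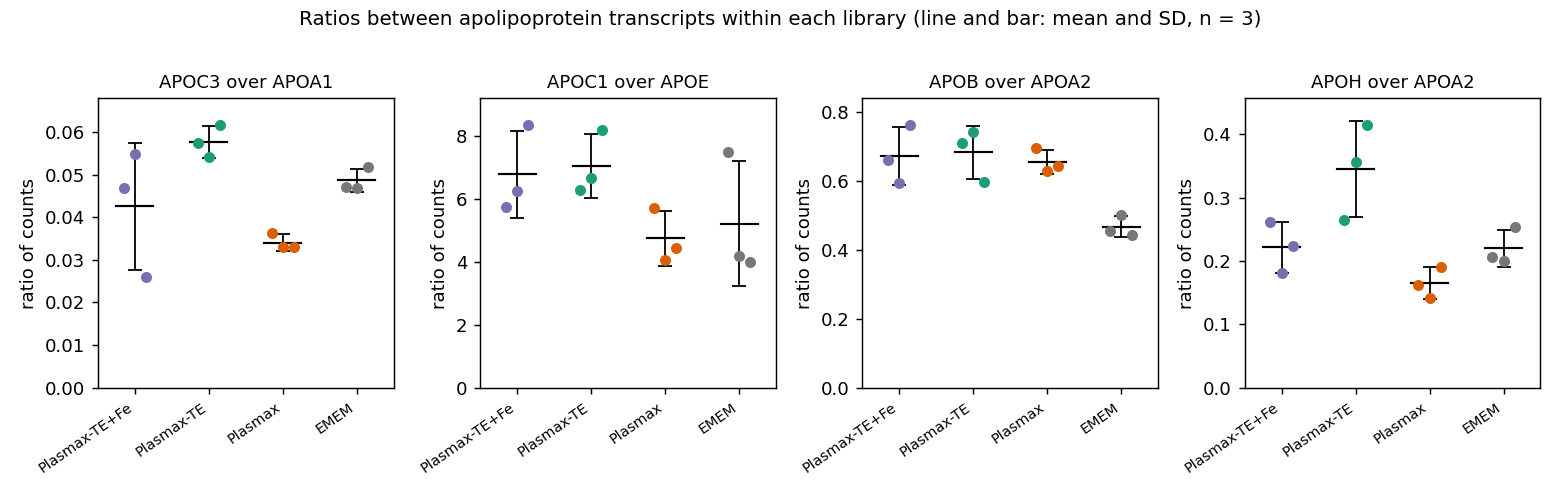
Ratio of counts of 4 pairs of apolipoprotein genes within each library (vertical axes, no unit) for Plasmax-TE+Fe, Plasmax-TE, Plasmax and EMEM, with points for libraries, lines for means and error bars for SD (n = 3). APOB over APOA2 lies at 0.595 to 0.764 in the Plasmax media and 0.445 to 0.502 in EMEM, and APOH over APOA2 lies at 0.265 to 0.415 in Plasmax-TE and at 0.141 to 0.261 in the other media.

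Across the 12 libraries, which share media and depth, log2 CPM of APOA1 and APOC3 had a Pearson r of 0.914, and of 0.759 after the medium means were removed. APOC3 and APOH had r = 0.847, APOA1 and APOA2 r = 0.839, and APOA1 and APOH r = 0.821, with 0.129, 0.483 and 0.270 within media. APOC1 and APOE, also neighbours, had r = -0.06. Against the mean of the other members, r was 0.941 for APOA1, 0.829 for APOH, 0.815 for APOA2, 0.785 for APOC3, 0.597 for APOB, 0.449 for APOC1 and 0.277 for APOE. The 5 genes outside the members whose log2 CPM was most like the members' mean were ARHGEF10L (r = 0.979), TMEM256 (r = 0.978), KLHDC2 (r = 0.969), SERPIND1 (r = 0.966) and TCF25 (r = 0.965), over 12 libraries. SERPIND1, a plasma inhibitor of thrombin made by the liver, had 266 ± 33.6 CPM in Plasmax-TE+Fe, 344 ± 55.5 in Plasmax-TE, 217 ± 29.4 in Plasmax and 439 ± 39.0 in EMEM (SD, n = 3 each).

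For single members the most similar gene was TTR for APOA2 (r = 0.981), DUSP9 for APOH (r = 0.984), C2orf72 for APOC3 (r = 0.979), RAB11FIP4 for APOA1 (r = 0.973), CANX for APOC1 (r = 0.955), MLLT10 for APOB (r = 0.905) and GNPAT for APOE (r = 0.893). TTR, which encodes the thyroid hormone and retinol carrier transthyretin, averaged 199 ± 31.5 CPM in Plasmax-TE+Fe, 262 ± 39.4 in Plasmax-TE, 205 ± 15.2 in Plasmax and 904 ± 109 in EMEM, a split between the Plasmax media and EMEM like that of APOA2. DUSP9, a phosphatase of mitogen-activated protein kinases, averaged 666 ± 24.9, 862 ± 84.4, 445 ± 63.6 and 923 ± 43.0 CPM in the same order, the 3 levels seen for APOH. Each of these was picked as the highest of all genes tested, so its r describes the match and is no test.

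The genes that act with apolipoproteins were described from 6 lists. Over all genes tested, 11.5% fell and 9.9% rose in Plasmax relative to EMEM, and 5.61% rose and 5.63% fell in Plasmax-TE relative to Plasmax. In Plasmax-TE+Fe 0.258% were called relative to Plasmax-TE, and 5.98% fell relative to EMEM. Across the 22 alternatives calls over all genes ran from 1489 to 2998 in Plasmax relative to EMEM, against 2233 in the model above. In Plasmax-TE relative to Plasmax they ran from 477 to 1859, against 1176. Other apolipoprotein genes, of which 10 of 19 were measured and tested, had 0 higher and 4 lower in Plasmax relative to EMEM, with a median log2 fold change of -0.44. APOA5, which promotes hydrolysis of triglyceride by lipoprotein lipase and lies in the APOA1 and APOC3 cluster, had 17.2, 44.9 and 19.9 CPM in Plasmax-TE+Fe, 76.5, 39.0 and 31.4 in Plasmax-TE, 5.12, 11.5 and 20.6 in Plasmax, and 100, 57.9 and 71.0 in EMEM. It fell in Plasmax relative to EMEM (-2.58 ± 0.39, adjusted p = 9.1e-05) and rose in Plasmax-TE relative to Plasmax (1.88 ± 0.41, adjusted p = 0.0054), as APOA1 and APOC3 did. CLU, which encodes the chaperone apolipoprotein clusterin, averaged 502 ± 113 CPM in Plasmax and 903 ± 122 CPM in EMEM (-0.90 ± 0.18, adjusted p = 0.0012). APOF, an inhibitor of lipid transfer, was low in both, at 2.19 ± 0.885 CPM in Plasmax and 10.6 ± 1.11 CPM in EMEM (-2.34 ± 0.49, adjusted p = 0.0017). In Plasmax-TE relative to Plasmax 2 rose, APOA5 and SAA4 (1.49 ± 0.29, adjusted p = 0.0025), a serum amyloid carried on HDL, and 0 fell. Without the 2 libraries that stood apart, or without Plasmax-TE replicate 1 alone, 1 fell.

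For lipoprotein assembly and secretion 19 of 21 genes were tested. Of these 7 fell and 0 rose in Plasmax relative to EMEM (median -0.38), 1 rose and 0 fell in Plasmax-TE relative to Plasmax (median 0.12), and 0 were called in Plasmax-TE+Fe relative to Plasmax-TE (median -0.09). The 1 of 19 genes higher in Plasmax-TE than in Plasmax was near the share of 5.61% over all genes. The gene that rose was MTTP, whose product loads lipid onto nascent APOB. MTTP had 32.4, 41.1 and 22.8 CPM in Plasmax-TE+Fe, 77.0, 47.6 and 43.4 in Plasmax-TE, 23.7, 21.9 and 22.9 in Plasmax, and 75.4, 68.0 and 79.2 in EMEM. Its log2 fold change was -1.75 ± 0.22 in Plasmax relative to EMEM (adjusted p = 1.1e-05) and 1.28 ± 0.22 in Plasmax-TE relative to Plasmax (adjusted p = 0.0011), while that of APOB was -0.40 and 0.20. SOAT2, which makes the cholesteryl esters packed into these particles, fell in all 3 Plasmax media relative to EMEM, with -2.51 ± 0.23 in Plasmax-TE+Fe, -1.72 ± 0.21 in Plasmax-TE and -1.57 ± 0.21 in Plasmax. CIDEB, a lipid-droplet protein that enlarges very low density lipoprotein, fell in Plasmax relative to EMEM (-1.17 ± 0.19, adjusted p = 1.5e-04). ACAT2 (-2.02 ± 0.25, adjusted p = 1.1e-05) is known as an enzyme at the entry of sterol synthesis and not of particle assembly, and without it 6 of 18 genes fell (median -0.35). With the library-number block, or without the 2 libraries that stood apart, 8 of the 19 fell and 1 rose in Plasmax relative to EMEM, and 2 rose in Plasmax-TE relative to Plasmax. With the block 1 also fell in Plasmax-TE relative to Plasmax, and 2 fell in Plasmax-TE+Fe relative to Plasmax-TE. Over all genes the block raised the calls from 1176 to 1859 in the former comparison and from 27 to 152 in the latter. In Plasmax relative to EMEM they ran from 1489 to 2998 across the 22 alternatives, against 2233.

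Among genes of plasma lipoprotein remodelling 11 of 20 were tested, and 2 rose and 4 fell in Plasmax relative to EMEM (median -0.35), while 4 rose and 1 fell in Plasmax-TE relative to Plasmax (median 0.34). LCAT, the HDL enzyme that APOA1 activates, averaged 26.2 ± 3.98 CPM in Plasmax-TE, 13.2 ± 3.99 in Plasmax and 52.0 ± 7.67 in EMEM. It rose in Plasmax-TE relative to Plasmax (0.99 ± 0.23, adjusted p = 0.010) and fell in Plasmax relative to EMEM (-2.03 ± 0.22, adjusted p = 2.2e-06). FURIN, a protease that processes several of these proteins, rose in Plasmax relative to EMEM (0.90 ± 0.21, adjusted p = 0.0041). Without the 2 libraries that stood apart 3 rose and 0 fell in Plasmax-TE relative to Plasmax, and the fall was also lost without any one of the Plasmax or Plasmax-TE libraries. The number that rose in Plasmax relative to EMEM was 1 without EMEM replicate 1 or 3 or Plasmax replicate 1 or 2.

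In the model of the 4 media without a block this was also the one list with calls in Plasmax-TE+Fe relative to Plasmax-TE, where 2 of its 11 genes fell. With the library-number block 1 of the other apolipoprotein genes, 2 assembly genes and 1 hepatic regulator fell there too. The block raised the calls over all genes there from 27 to 152. LIPC, which encodes hepatic lipase, had 60.9, 64.4 and 51.2 CPM in Plasmax-TE+Fe, 98.7, 102 and 107 in Plasmax-TE, 64.0, 53.8 and 61.9 in Plasmax, and 76.6, 86 and 92.8 in EMEM. Its libraries in Plasmax-TE lay above those of every other medium, and it fell in Plasmax-TE+Fe relative to Plasmax-TE (-0.81 ± 0.16, adjusted p = 0.027). LIPC lost the call with a replicate block (adjusted p = 0.055), with only the 6 libraries compared (adjusted p = 0.14) and without Plasmax-TE replicate 2 (adjusted p = 0.12) or 3 (adjusted p = 0.13) or Plasmax-TE+Fe replicate 1 (adjusted p = 0.12) or 3 (adjusted p = 0.27). LIPC stayed called without the pair of libraries that stood apart.

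Receptors and uptake genes had 13 of 18 tested, with 1 higher and 2 lower in Plasmax relative to EMEM (median -0.18) and 1 higher and 1 lower in Plasmax-TE relative to Plasmax (median -0.11). These counts were near the shares over all genes, of which 21.4% were called in Plasmax relative to EMEM and 11.2% in Plasmax-TE relative to Plasmax. In Plasmax relative to EMEM 4 were lower with the library-number block or without the 2 libraries that stood apart, and 0 to 2 were higher with single libraries left out. The lower one in Plasmax-TE relative to Plasmax was lost in 11 of 22 alternatives. AMN, the membrane partner of the endocytic receptor cubilin, averaged 26.6 ± 4.20 CPM in Plasmax-TE, 9.90 ± 5.37 in Plasmax and 29.6 ± 6.67 in EMEM. It fell in Plasmax relative to EMEM (-1.56 ± 0.30, adjusted p = 0.0010) and rose in Plasmax-TE relative to Plasmax (1.36 ± 0.31, adjusted p = 0.0075), which did not pass without Plasmax replicate 2 (adjusted p = 0.055). Cholesterol efflux had 7 of 10 genes tested, with 0 higher and 4 lower in Plasmax relative to EMEM (median -1.01) and 1 higher, ABCB4, in Plasmax-TE relative to Plasmax (median 0.69). The 4 lower genes were ABCB4, NPC2, ABCG5 and NPC1L1. NPC1L1 (-1.86, adjusted p = 0.0088) is known for uptake of cholesterol and not for efflux. In Plasmax relative to EMEM 6 of the 7 genes were lower with the library-number block or without the 2 libraries that stood apart, and 2 without EMEM replicate 1. Over all genes, calls in that comparison ran from 1489 to 2998 across the 22 alternatives, against 2233. ABCB4, the phospholipid exporter of bile, averaged 34.3 ± 3.95 CPM in Plasmax-TE, 21.2 ± 2.85 in Plasmax and 41.8 ± 4.78 in EMEM. Its rise in Plasmax-TE relative to Plasmax (0.69 ± 0.20, adjusted p = 0.031) did not pass without Plasmax replicate 1 (adjusted p = 0.10) or 2 (adjusted p = 0.12) or Plasmax-TE replicate 2 (adjusted p = 0.12) or 3 (adjusted p = 0.070), in DESeq2 (adjusted p = 0.0501) or with only the 6 libraries compared (adjusted p = 0.054). NPC2, a lysosomal cholesterol carrier, averaged 131 ± 9.08 CPM in Plasmax and 207 ± 11.2 CPM in EMEM (-0.71 ± 0.14, adjusted p = 0.0011).

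Of the hepatic regulators of apolipoprotein genes 35 of 39 were tested. In Plasmax relative to EMEM 17 fell and 0 rose (median -0.57), in Plasmax-TE relative to Plasmax 9 rose and 1 fell (median 0.31), and in Plasmax-TE+Fe relative to EMEM 10 fell and 0 rose (median -0.33). In Plasmax-TE+Fe relative to Plasmax-TE 0 of 35 were called (median -0.19), and 4 fell without Plasmax-TE+Fe replicate 2. The 17 became 20 with the library-number block or without the 2 libraries that stood apart. The 9 became 13 with the block, 8 without those 2 libraries and 4 without Plasmax replicate 2. The 10 became 12 with the block, 13 without those 2 libraries and 6 without EMEM replicate 3 or Plasmax-TE+Fe replicate 3. Calls over all genes, in either direction, moved too. In Plasmax relative to EMEM they were 2233, and 1489 to 2998 across the 22 alternatives. In Plasmax-TE relative to Plasmax they were 1176, with 1859 under the block and 477 without Plasmax replicate 2. In Plasmax-TE+Fe relative to EMEM they were 1009, with 1569 under the block, 606 without EMEM replicate 3 and 651 without Plasmax-TE+Fe replicate 3. NR1H4, the bile acid receptor, averaged 52.4 ± 14.5 CPM in Plasmax-TE, 20.7 ± 1.12 in Plasmax and 54.3 ± 4.18 in EMEM, with -1.43 ± 0.21 in Plasmax relative to EMEM (adjusted p = 6.4e-05) and 1.32 ± 0.21 in Plasmax-TE relative to Plasmax (adjusted p = 5.6e-04). NR0B2, a corepressor that NR1H4 is known to induce, averaged 119 ± 37.8 CPM in Plasmax-TE, 57.3 ± 0.572 in Plasmax and 212 ± 32.3 in EMEM, with -1.94 ± 0.20 in Plasmax relative to EMEM (adjusted p = 1.3e-06) and 1.07 ± 0.20 in Plasmax-TE relative to Plasmax (adjusted p = 0.0020). FOXA1 (1.42 ± 0.28, adjusted p = 0.0027) and CEBPA (1.56 ± 0.32, adjusted p = 0.0041), 2 liver transcription factors, rose in Plasmax-TE relative to Plasmax as well. HNF4A did not pass in Plasmax relative to EMEM (-0.35 ± 0.16, adjusted p = 0.11) and fell in Plasmax-TE+Fe relative to EMEM (-0.58 ± 0.16, adjusted p = 0.021). HNF4A lost its Plasmax-TE+Fe call without EMEM replicate 1 (adjusted p = 0.086) or 3 (adjusted p = 0.085) or Plasmax-TE+Fe replicate 2 (adjusted p = 0.060) or 3 (adjusted p = 0.070), and passed in Plasmax relative to EMEM without Plasmax replicate 3 (adjusted p = 0.034) and with the library-number block (adjusted p = 0.043). HNF4A was named after its values were seen, because its motif is given above.

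**Figure D4:**
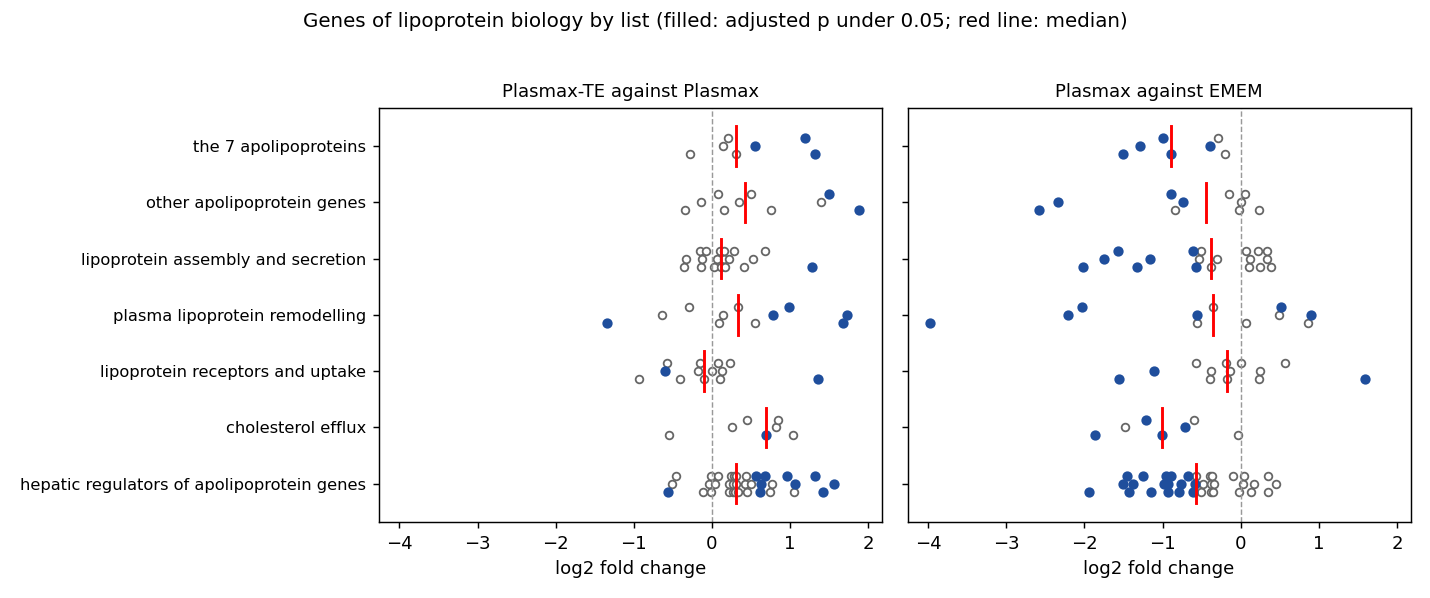
Log2 fold change of each tested gene of 7 lists (the members and 6 lists of lipoprotein genes) in Plasmax-TE relative to Plasmax (left) and Plasmax relative to EMEM (right). Each point is a gene and the red line is the list median, which for the members is 0.31 on the left and -0.89 on the right.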

How the data were processed

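From HepG2 total RNA 12 QuantSeq libraries were made, whose reads start near the 3′ end of transcripts. Per the submitters' processing notes, the build was hg19 (GRCh37) and the tools included STAR 2.7.5b and featureCounts 1.6.3, beside FastQC 0.72, cutadapt 1.16 and limma 3.40.6. The sources used here give neither annotation nor strand setting. The authors deposited raw counts per gene, not normalized. The table had 10994 entries, of which 54 repeats of 53 identifiers were dropped, leaving 10940 genes; 506 entries had no symbol and 255 genes were named from the reference. The lowest third-highest CPM of any gene was 4.04, so low genes had been removed before deposit.

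In R 4.3.3 with edgeR 4.0.16, filterByExpr (minimum count 10, minimum total 15) removed 481 genes and left 10459. TMM factors and one quasi-likelihood model of the 4 media over 12 libraries (8 residual degrees of freedom) gave two-sided tests, with Benjamini-Hochberg adjustment over all genes and a threshold of 0.05. The SE is the absolute log2 fold change over the square root of F. CPM values are counts over the library total, without TMM factors. Correlations use log2 CPM with TMM factors and a prior count of 2.

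As alternatives, scaling used RLE factors or library size alone, tests used DESeq2 1.42.0 or voom of limma 3.58.1, and the filter was dropped or set to a mean of 5 CPM. Blocks were the replicate number or the library number of the labels (85 to 88, 89 to 92 and 93 to 96). Fits were repeated without each library in turn, without both libraries that stood apart (replicate 2 of Plasmax-TE+Fe with replicate 1 of Plasmax-TE) and on the 6 libraries compared alone. Recomputing the other gene lists and HNF4A under these, and the assembly list without ACAT2, was chosen after seeing the data. Pairing was checked by the correlation, across genes, of deviations from the medium means. Such deviations cancel out over the 3 libraries of a medium, so the 3 r of a comparison are not independent. The correlation was over 0.1 in all 3 pairs of same-numbered replicates for Plasmax-TE relative to EMEM alone (r = 0.164, 0.110 and 0.173). For libraries of the same run of library numbers it was over 0.1 in all 3 pairs there (the same pairs), in Plasmax-TE+Fe relative to Plasmax-TE (0.534, 0.217 and 0.377) and in Plasmax-TE+Fe relative to EMEM (0.127, 0.117 and 0.186); the labels do not say what a run marks. The members, the 6 other lists and the marker lists were chosen with earlier results of these data known. Named are the members, up to 4 called genes with the lowest p per list and comparison, and the genes most like the members in Pearson r. Not every gene so named is described, and some results are not reported here. The fit was tested on simulated data.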

Additional observations from a re-analysis of the deposited data

How the results depend on the processing

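Across the alternatives no apolipoprotein reversed a call, and of the log2 fold changes of members by comparison and setting 889 stayed on the same side of the threshold, 20 passed newly and 15 no longer passed. For 0 members called in Plasmax-TE+Fe relative to Plasmax-TE, library size alone gave 1, DESeq2 2, the library-number block 3 and leaving out the 2 libraries that stood apart 2. For 0 called in Plasmax-TE+Fe relative to Plasmax, library size alone, the library-number block and leaving out those 2 libraries each gave 1. For 1 called in Plasmax-TE relative to EMEM the library-number block gave 3 (APOA2, APOA1 with adjusted p = 0.020 and APOE with adjusted p = 0.032), and leaving out those 2 libraries gave 2 (APOA1 with -0.55, adjusted p = 0.044). The cause was not tested. With single libraries left out, the counts ran from 0 to 1 in Plasmax-TE+Fe relative to Plasmax-TE, stayed at 0 relative to Plasmax, and ran from 4 to 5 relative to EMEM, where APOE passed without EMEM replicate 1 (adjusted p = 0.043) or Plasmax replicate 3 (adjusted p = 0.035). They ran from 4 to 5 in Plasmax relative to EMEM and from 2 to 3 in Plasmax-TE relative to Plasmax, and stayed at 1 in Plasmax-TE relative to EMEM and at 4 over the 4 media.

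The replicate block changed 1 member call, APOB in Plasmax relative to EMEM (adjusted p = 0.0502), and left the counts at 0 in Plasmax-TE+Fe relative to Plasmax-TE and 1 in Plasmax-TE relative to EMEM. Among all genes the count in Plasmax-TE+Fe relative to Plasmax-TE was 27, against 81 with DESeq2, 152 with the library-number block, 99 without the 2 libraries that stood apart, 0 with only the 6 libraries compared, 0 without Plasmax-TE replicate 2 or 3 or Plasmax-TE+Fe replicate 1 or 3, 229 without Plasmax-TE+Fe replicate 2, 17 without Plasmax replicate 2 and 47 without Plasmax replicate 3. In Plasmax-TE+Fe relative to Plasmax it was 126, against 372 with the library-number block, 77 with 6 libraries, 31 without Plasmax replicate 2, 71 without Plasmax-TE+Fe replicate 1 and 82 without Plasmax-TE+Fe replicate 2. With the library-number block it was 1859 against 1176 in Plasmax-TE relative to Plasmax, 829 against 503 in Plasmax-TE relative to EMEM, 1569 against 1009 in Plasmax-TE+Fe relative to EMEM and 2835 against 1879 over the 4 media. In Plasmax relative to EMEM the count was 2233, and 1489 to 2998 across the 22 alternatives. Leaving out single libraries lowered 1176 to 780 without Plasmax replicate 1, 477 without Plasmax replicate 2 and 744 without Plasmax-TE replicate 1. The 503 became 293, 284 and 259 without EMEM replicate 1, 2 and 3 and 294 without Plasmax-TE replicate 2, and the 1009 became 628, 666 and 606 without EMEM replicate 1, 2 and 3 and 651 without Plasmax-TE+Fe replicate 3. Of 73 calls of named list genes 48 held in every alternative, 25 were lost in at least 1 and 0 reversed. Depth limits mainly APOC3 and list genes of a few CPM.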
